A study of Mus musculus with 4 samples.

Results

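The miR-290 cluster of the mouse encodes 7 miRNA hairpins on a single primary transcript, and the data below concern both mature arms of miR-293, the 5p arms of the other 6 hairpins and the host transcript D7Ertd143e. Members were taken by name: 8 of the 707 mature miRNAs in a small RNA count table (mmu-miR-293-3p, mmu-miR-293-5p, mmu-miR-290-5p, mmu-miR-291a-5p, mmu-miR-291b-5p, mmu-miR-292-5p, mmu-miR-294-5p and mmu-miR-295-5p, with the species prefix left out below) and 1 of the 13815 genes in an mRNA count table. All 9 were listed. The 8 mature miRNAs held 1156138 of 2594949 miRNA reads, or 44.6% of the table.

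The study asked about a step of miR-17-92 production that comes before Microprocessor. Its mouse embryonic stem cells carry the strain label V6.5, a hybrid line, and were cultured in DMEM with fetal bovine serum and ESGRO, a commercial leukaemia inhibitory factor. Polyadenylated RNA was sequenced from WT cells, from dgcr8-/- cells (called the Dgcr8 knockout here) and from dicer-/- cells (the Dicer knockout), and a small RNA library was made from WT. The labels do not describe the knockout alleles or the number of clones. Each of the 4 groups has 1 library. Without replicates there was no test, and genotype, cell line and culture cannot be told apart. The 95% intervals cover counting error only. Small RNA was not analysed here in either knockout, so the mature members have values in WT cells alone.

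A primary miRNA transcript is cut in the nucleus by Microprocessor, which holds the nuclease Drosha and its RNA-binding partner DGCR8, and the released hairpin is cut in the cytoplasm by Dicer. The product is a duplex of a 5p and a 3p arm. Usually 1 arm is kept by an Argonaute protein and the other is degraded, and bases 2 to 8 of the kept arm, the seed, pair with target mRNAs. The miR-290 cluster is the dominant miRNA locus of mouse embryonic stem cells, and its best-known products are 3p arms with the seed core AAGUGC, which promote the G1 to S transition. The arms described here do not carry that core at their seed.

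The mature sequences show what the members share. They are RefSeq sequences of the build GRCm38.p6, written 5′ to 3′ with bases 2 to 8 in capitals. RefSeq calls the miRNAs of the table's miR-290 and miR-292 miR-290a and miR-292a. The 3 arms with the seed CUCAAAC and the 2 arms that differ from it at base 8 are given first, then the pair with the seed AUCAAAG, then miR-293-3p and, for comparison, the 3p arms of miR-294 and miR-290.
miR-293-5p: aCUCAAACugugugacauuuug
miR-292-5p: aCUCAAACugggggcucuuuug
miR-290-5p: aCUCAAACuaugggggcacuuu
miR-294-5p: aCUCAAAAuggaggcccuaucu
miR-295-5p: aCUCAAAUguggggcacacuuc
miR-291a-5p: cAUCAAAGuggaggcccucucu
miR-291b-5p: gAUCAAAGuggaggcccucucc
miR-293-3p: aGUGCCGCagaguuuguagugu
miR-294-3p: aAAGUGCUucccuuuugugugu
miR-290-3p: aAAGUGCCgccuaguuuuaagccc

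The letters UCAAA stood at bases 3 to 7 of all 7 5p arms and of 8 of the 1679 mature mouse miRNAs in the RefSeq table (0.476%). With position 1 at the 5′ end and the base of miR-293-5p first, miR-294-5p differed from it within the first 8 bases by C8A and miR-295-5p by C8U. The 5p arms of miR-293, miR-292 and miR-290 were identical over those 8 bases. Beyond the seed they diverged: miR-293-5p and miR-292-5p were equal at 17 of 22 positions, and miR-293-5p and miR-290-5p at 14. The closest pair was miR-291a-5p and miR-291b-5p, equal at 20 of 22 positions, with C1G and U22C as the only differences (the miR-291a-5p base first). How reads with a mismatch were assigned between that pair was not given in the sources used here, so the split of their reads is uncertain.

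The hairpins show where each arm lies. The strand of the host is plus, the coordinates are those of GRCm38.p6, and the mature arms are in capitals. The hairpins of miR-290, whose 5p arm had more reads than its 3p arm, of miR-293, and of miR-295, which had the smallest 5p share, are shown.
Mir290a, chr7:3218626-3218708: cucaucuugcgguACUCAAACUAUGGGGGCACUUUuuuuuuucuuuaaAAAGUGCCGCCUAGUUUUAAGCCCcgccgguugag
Mir293, chr7:3220343-3220422: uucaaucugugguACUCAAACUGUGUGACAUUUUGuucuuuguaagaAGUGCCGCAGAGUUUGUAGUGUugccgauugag
Mir295, chr7:3220773-3220841: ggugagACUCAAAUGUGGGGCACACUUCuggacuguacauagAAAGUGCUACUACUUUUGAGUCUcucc

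The sequence AAGUGC, searched on the transcribed strand only, was present in all 6 cluster hairpins with an entry in the table and in 37 of 1005 mouse hairpins (3.68%). In Mir290a, Mir291b, Mir294 and Mir295 it began at base 2 of the 3p arm. In Mir293 it began 1 base before the first base of the 3p arm, so that the seed of miR-293-3p reads GUGCCGC. The loop between the arms was 12 bases long in Mir293 and 13 or 14 in the 5 other hairpins in which both arms could be placed. Minimum free energies from RNAfold were -29.2 kcal/mol for Mir293, the weakest of the 6, and -41.2 kcal/mol for Mir292, the strongest. The first 4 bases of both arms of Mir293 were predicted to be paired. In Mir290a, 2 of the first 4 bases of the 5p arm and 4 of those of the 3p arm were. The same numbers were 3 and 2 in Mir291b, 3 and 3 in Mir294, and 4 and 3 in Mir295. The part of this pairing in the arm ratios was not tested.

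MiR-293-3p was the most abundant miRNA of the WT library. It had 998005 reads, 38.5% of the table (95% Clopper-Pearson interval 38.4 to 38.5). It exceeded miR-294-3p, the second of the list with 265812 reads, 3.75-fold (3.74 to 3.77). Within the cluster it made up 53.4% of the 3p reads. Seeds were read only for listed miRNAs with a RefSeq match; 152 others with 10.1% of the reads, among them miR-292-3p with 198264, entered no seed. Over the 453 seeds so found, GUGCCGC of miR-293-3p had the most reads, and no other mature mouse miRNA of the RefSeq table carried it. The seed AAGUGCU, carried by miR-294-3p, miR-291a-3p, miR-295-3p, miR-302b-3p and miR-302d-3p, came next with 667584 reads, or 25.7% of the table.

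MiR-293-5p, the other arm of the same hairpin, ranked 6 of 707 with 103089 reads, 3.97% of the table (3.95 to 3.997). The 4 miRNAs between the arms of miR-293 in that order were the 3p arms of miR-294, miR-291a, miR-292 and miR-295. MiR-293-5p had 1.12 times (1.11 to 1.13) the 92145 reads of miR-96-5p, the most abundant miRNA from outside the cluster. Both arms of miR-293 together held 1101094 reads, 42.4% of the table and 54.3% of the 2026525 reads of the cluster.

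The other 5p arms ranged from rank 9 to rank 238 of the 707 miRNAs, all above the median of 21 reads. MiR-292-5p was the only other 5p arm of the cluster among the 10 most abundant miRNAs, at rank 9 with 47552 reads (1.83% of the table, 1.82 to 1.85). MiR-291a-5p had 3867 reads at rank 37 and miR-291b-5p 2290 reads at rank 47. MiR-290-5p, the third arm with the seed CUCAAAC, had 1041 reads at rank 80.

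MiR-294-5p had 216 reads at rank 176, and miR-295-5p had 78 reads at rank 238, a share of 0.00301% (0.00238 to 0.00375). The order of the 7 arms was therefore miR-293, miR-292, miR-291a, miR-291b, miR-290, miR-294 and miR-295. The ratio between neighbours was smallest between miR-291a-5p and miR-291b-5p, at 1.69 (1.60 to 1.78), and largest between miR-292-5p and miR-291a-5p, at 12.3 (11.9 to 12.7). The intervals of all 6 neighbouring ratios lay above 1, for counting error alone. From miR-293-5p to miR-295-5p the reads differed 1322-fold (1059 to 1672).

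The 7 5p arms held 158133 reads, 6.09% of the table and 7.80% of the cluster (7.77 to 7.84). MiR-293-5p supplied 65.2% of these reads and miR-292-5p 30.1%, and the remaining 5 arms together 7492 reads, or 4.74%. Without the miR-293 hairpin the 5p share of the cluster was 5.95%. Grouped by seed, CUCAAAC had 151682 reads, 5.85% of the table and the third place of the 453 seeds of matched miRNAs, and its 3 matched carriers belong to the cluster. That place holds among matched miRNAs only, since the unmatched miR-292-3p alone had 198264 reads, more than CUCAAAC. The seed AUCAAAG of miR-291a-5p and miR-291b-5p had 6157 reads (0.237%, place 20), CUCAAAA of miR-294-5p took place 107, and CUCAAAU of miR-295-5p took place 145.

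**Figure D1:**
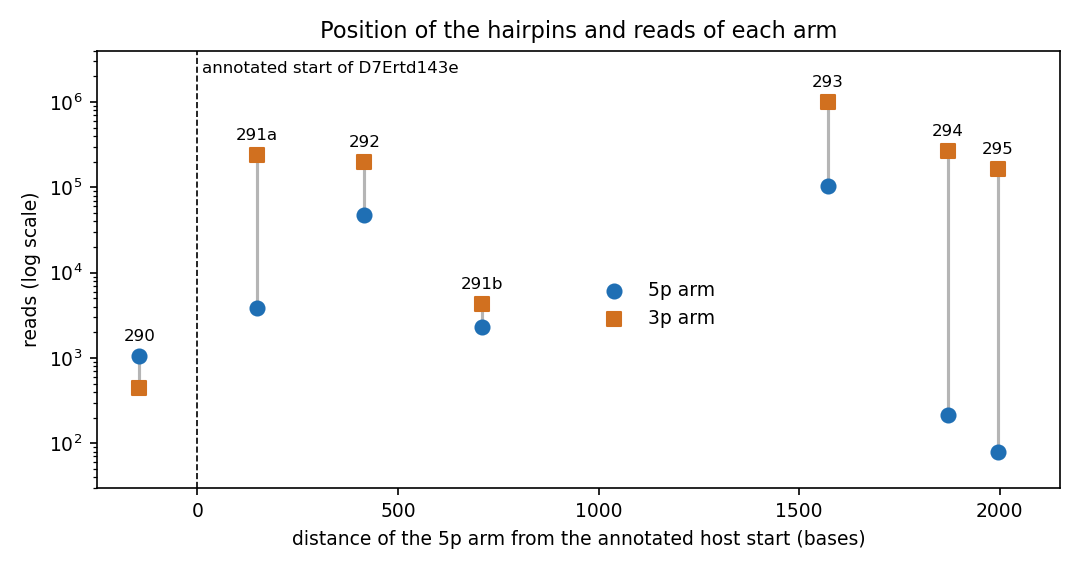
Reads of the 5p and the 3p arm of each hairpin of the miR-290 cluster in the WT small RNA library (log scale), against the distance of the 5p arm from the annotated start of the host transcript in bases. The 2 arms of miR-293 are the highest point of each kind, at 998005 and 103089 reads, and the 5p arms of miR-294 and miR-295 are the lowest points, at 216 and 78 reads.

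The hairpins lie along a stretch of 2216 bases from the start of Mir290a to the end of Mir295. Mir290a ends 75 bases before the annotated start of D7Ertd143e, and the other 6 hairpin genes start after it. The deposited table was made on another build, mm9, and the host's start in that annotation was not given in the sources used here. Neighbours on the transcript differed widely: miR-292 had 245816 reads over both arms and the next hairpin, miR-291b, 6612 reads. The plot of reads by position shows no steady trend from the first to the last hairpin.

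Because all 7 hairpins leave the same transcript, the members were set against the opposite arm of their own hairpin. For miR-293 the 3p arm exceeded the 5p arm 9.68-fold (9.62 to 9.74), a 5p share of 9.36% (9.31 to 9.42). For miR-292 the 3p arm, with 198264 reads, exceeded the 5p arm 4.17-fold (4.13 to 4.21), a 5p share of 19.3%. The 2 hairpins with the most 5p reads were thus those of the middle of the range of arm shares, not its ends.

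In miR-291a the 3p arm had 237694 reads and exceeded the 5p arm 61.5-fold (59.5 to 63.5). In miR-294 the excess was 1231-fold (1077 to 1413). In miR-295, where the 3p arm had 163848 reads, it was 2101-fold (1683 to 2658). These 3 hairpins had 5p shares of 1.60%, 0.0812% and 0.0476%.

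The 2 hairpins with the fewest reads had the most even arms. MiR-291b had 2290 reads of the 5p arm and 4322 of the 3p arm, a ratio of 1.89 (1.79 to 1.99) and a 5p share of 34.6% (33.5 to 35.8). MiR-290 was the only hairpin of the cluster with more 5p reads, 1041 against 447, a ratio of 2.33 (2.08 to 2.61) and a 5p share of 70.0% (67.6 to 72.3). MiR-290 and miR-293 have the same first 8 bases in the 5p arm, and their 5p shares were 70.0% and 9.36%.

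An arm was called higher at 2-fold or more over its partner. Of the 7 hairpins, 5 had a higher 3p arm, 1 a higher 5p arm and 1 neither. Over all 205 hairpins with both arms listed and 10 or more reads, the 5p arm was higher in 103 (50.2%) and the 3p arm in 79 (38.5%). The median 5p share was 9.36% in the cluster and 69.4% over the 205 hairpins. At 1.5-fold miR-291b joined the hairpins with a higher 3p arm, and at 4-fold the call of miR-290 was lost.

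The less abundant arm held a median of 9.36% of the reads in the cluster and 5.95% over the 205 hairpins. Ranked by reads, the 4 most abundant minor arms of all were miR-293-5p, miR-292-5p, miR-291a-5p and miR-291b-5p, and the highest from outside the cluster, miR-708-3p, had 1903 reads. Ranked by share the picture was different. Of 60 hairpins outside the cluster with 1000 reads or more, a class set after the values were seen, 16 had a larger minor share than miR-293, 13 a larger one than miR-292, and 2 a smaller one than miR-295. The median minor share of those 60 was 1.51%.

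**Figure D2:**
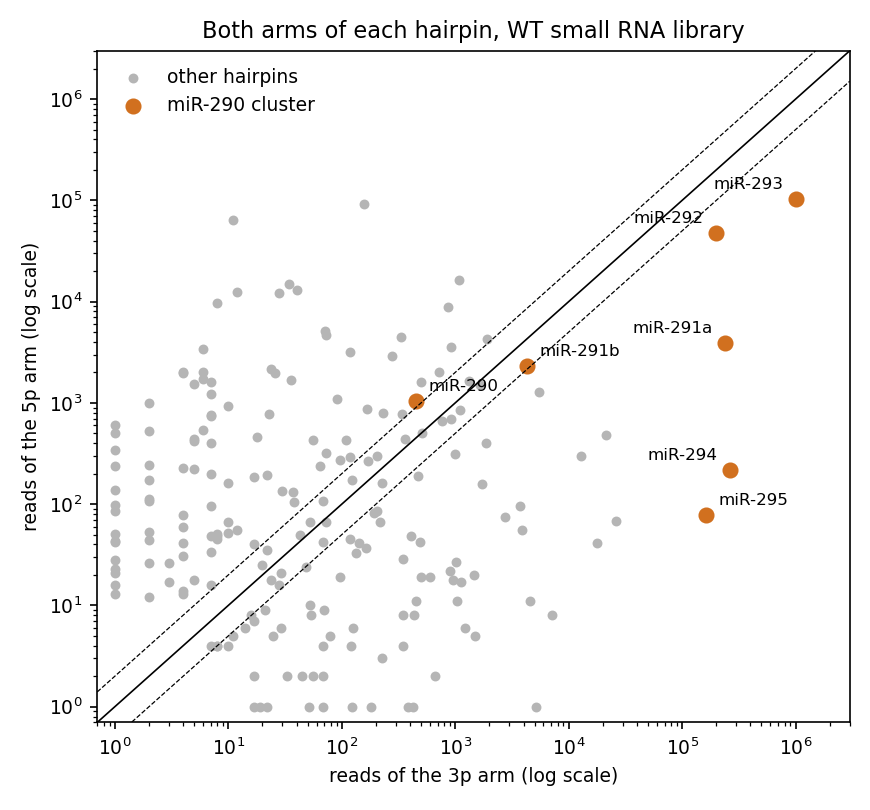
Reads of the 5p arm against reads of the 3p arm for the 205 hairpins with both arms listed and 10 or more reads (log axes), with the miR-290 cluster in colour. The solid line marks equal arms and the dashed lines a 2-fold difference: miR-290 lies just above the upper dashed line, miR-291b between the lines, and the other 5 hairpins of the cluster below the lower line.

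Arm ratios also varied among hairpins of other clusters that are known for a related AAGUGC core. In the miR-17 type the core lies in the 5p arm. Its 5p shares were 47.4% for miR-17, 91.1% for miR-106b, 98.9% for miR-106a, 99.7% for miR-20a, 99.8% for miR-20b and 99.9% for miR-93. In the miR-302 type, whose core lies in the 3p arm, miR-302b had 1 read of the 5p arm and 122 of the 3p arm, and miR-302a had 7 and 17. In the miR-290 cluster the 3p arm carries the core, and in miR-293 it carries it shifted.

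The first base of an arm differed little within the cluster. Over 135 hairpins with a called arm and both sequences in the RefSeq table, the higher arm began with U in 55.6% and the lower arm in 17.0%, and A began 23.7% of the higher and 34.8% of the lower arms. No matched arm of the cluster began with U. The 5p arms began with A, apart from miR-291a-5p with C and miR-291b-5p with G, and all matched 3p arms with A. Every 5p arm held 2 G or C among its first 4 bases, as did miR-293-3p, and the other matched 3p arms held 1.

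The labels of the mRNA libraries were checked on the targeted genes. Dgcr8 had 523 counts in WT and 232 in its own knockout, 2.52-fold lower in counts per 1e6 (CPM) (2.16 to 2.96). Dicer1 had 794 counts in WT and 247 in its own knockout, 3.98-fold lower (3.45 to 4.61). Both genes were therefore reduced in the library labelled with their loss but still had counts, and whether those lie outside the deleted part was not tested. All 10 embryonic stem cell markers reached 1 CPM in all 3 mRNA libraries, with summed levels of 11440 CPM (WT), 7663 (Dgcr8 knockout) and 8274 (Dicer knockout). Dppa5a was the largest part of each sum, at 5564, 2715 and 4222 CPM. Tdgf1 (1486, 471 and 421 CPM) was also below WT in both knockouts, while Sox2 (382, 523 and 532) and Fbxo15 (36.8, 83.5 and 100) were above it. Zfp42 had 488, 386 and 95.1 CPM. The median log2 ratio of CPM + 1 to WT over the 10 was 0.03 (Dgcr8 knockout) and -0.07 (Dicer knockout), beside 0.11 and 0.10 for all genes. Of 10 fibroblast and feeder markers 4 were listed, at summed levels of 41.2, 11.06 and 3.01 CPM in the same order, and Col1a2, Col3a1, Dcn and Lum had no row. Of 9 trophectoderm markers 7 were listed, at 83.5, 230 and 187 CPM, while Cdx2 and Elf5 had no row. Of 8 extra-embryonic endoderm markers 5 were listed, at 16.2, 8.72 and 7.56 CPM, while Sox17, Foxa2 and Afp had no row. That sum hides opposite directions: Gata4 had 1.51, 7.73 and 6.09 CPM and Hnf4a 9.97, 0 and 0. Gata6, Sox7 and Dab2 were below WT in both knockouts, at low counts.

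The host transcript D7Ertd143e (NR_028425) is taken here as the primary transcript of these hairpins, although Mir290a ends 75 bases before its annotated start. It was measured in polyadenylated RNA of all 3 genotypes. Its counts were 501 (WT), 4820 (Dgcr8 knockout) and 1124 (Dicer knockout). Counts were scaled to the table total of their library as CPM. The levels were 50.4 CPM in WT (46.1 to 55.1), 433 CPM without Dgcr8 (421 to 446) and 91.3 CPM without Dicer (86.1 to 96.8). WT was the lowest library and the Dgcr8 knockout the highest, and no counting intervals overlapped. In bulk RNA, fewer cells with the transcript and less of it per cell cannot be told apart.

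D7Ertd143e was 8.59-fold higher in the Dgcr8 knockout than in WT (7.83 to 9.44). In the Dicer knockout it was 1.81-fold higher than in WT (1.63 to 2.02). Both ratios use the same WT library. The direct ratio of the Dgcr8 to the Dicer knockout was 4.75 (4.45 to 5.07). The summed trophectoderm markers were also above WT in both knockouts, and the fibroblast sum was below WT in both; their part in these ratios was not tested. Single trophectoderm markers differed in order: Krt8, a keratin, had 39.6 CPM (WT), 111 (Dgcr8 knockout) and 48.7 (Dicer knockout), the transcription factor Tfap2c 18.3, 55.1 and 86.4, and Eomes was below WT in both knockouts.

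Genes were called at 2-fold or more on log2(CPM + 1), a scale that shrinks ratios of low genes, where 1 of the 2 libraries reached 1 CPM. On that scale the log2 ratios of D7Ertd143e were 3.08 for the Dgcr8 knockout against WT, 0.84 for the Dicer knockout against WT and 2.23 between the knockouts. It was thus called higher in the Dgcr8 knockout, as were 14.3% of genes, while 8.02% were called lower. Against WT the Dicer knockout had 16.0% of genes higher and 9.70% lower, and the host was not called. In the Dgcr8 knockout against the Dicer knockout the host was called higher, as were 4.15% of genes, and 5.05% were lower. Of 13223 genes, 58 (0.439%) had a larger ratio than the host in the Dgcr8 knockout against WT. Of 12986 genes, 42 (0.323%) did in the comparison of the knockouts. In the Dicer knockout against WT, 2663 of 13403 genes (19.9%) had a larger one.

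Scaling changed no direction of these ratios. With median-ratio size factors the host ratio of the Dgcr8 knockout to WT was 7.80 and the median of all genes moved by -0.13 on the log2 scale, and for the Dicer knockout by -0.11. Of the genes called in the Dgcr8 knockout against WT, 64.1% were higher with table totals and 53.6% with those factors. The medians with table totals, 0.11 and 0.10, were about as large as their shifts, so the sign of small log2 ratios depends on the scaling.

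The neighbouring listed genes were much closer to 1. AU018091, the nearest listed gene on one side of the host, had 890 (WT), 1514 (Dgcr8 knockout) and 836 (Dicer knockout) counts. Its ratio was 1.52 (1.40 to 1.65) for the Dgcr8 knockout to WT and 0.758 (0.689 to 0.834) for the Dicer knockout to WT. Myadm, on the other side, had ratios of 1.21 (1.11 to 1.32) and 0.996 (0.910 to 1.09). Both neighbours, like the host, had their highest level in the Dgcr8 knockout.

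Other noncoding primary miRNA transcripts put the host in context. Of a list of 15 such hosts, 11 were listed in the table. In the Dgcr8 knockout against WT 6 of 10 above the floor were called higher, beside 14.3% of all genes, and none lower, beside 8.02%. Their median log2 ratio was 1.10 beside 0.11 for all genes. With median-ratio size factors 5 were higher. The calls of Dleu2 (22 counts in the Dgcr8 knockout) and C430049B03Rik (19 counts) rest on 2 counts each in WT. In the Dicer knockout against WT 1 of 8 was higher, beside 16.0% of all genes, and 4 were lower, beside 9.70%, with a median of -1.15 (-1.39 with Mirg, at 0 counts, set at its bound) beside 0.10. In the Dgcr8 against the Dicer knockout 7 of 10 were higher, beside 4.15% of all genes, and none lower, beside 5.05%, with a median of 1.18 beside 0.00. Rian, Meg3 and Mirg, all of the imprinted Dlk1-Dio3 region, were among the called hosts each time. In the Dicer knockout against WT, 2610203C20Rik was the only lower host from elsewhere. These counts and medians therefore do not stand for as many separate loci.

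Single transcripts of that list followed different orders. Mir17hg, the host of miR-17-92, had 17 (WT), 472 (Dgcr8 knockout) and 509 (Dicer knockout) counts, ratios to WT of 24.8 (15.3 to 42.9) and 24.2 (14.9 to 41.8). The host of the miR-290 cluster was thus nearer to WT than Mir17hg in both knockouts, and unlike Mir17hg it differed between the knockouts, where the ratio of Mir17hg was 1.03 (0.903 to 1.17). Rian, a noncoding RNA of the imprinted Dlk1-Dio3 region, had 413, 1287 and 34 counts. It was 2.78-fold higher in the Dgcr8 knockout (2.49 to 3.12) and 15.05-fold lower in the Dicer knockout (10.6 to 22.0).

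Meg3 of the same region had 101, 242 and 6 counts, and Mirg, the third, 20, 173 and 0. Mirg was 7.72-fold higher in the Dgcr8 knockout than in WT (4.85 to 12.96) and, against a floor of 3 counts in the Dicer knockout, at least 8.26-fold lower there. Mir22hg, the host of miR-22, had 26, 55 and 15 counts. Its ratio was 1.89 (1.16 to 3.14) for the Dgcr8 knockout to WT and 0.465 (0.229 to 0.912) for the Dicer knockout to WT. The counts of 2610203C20Rik were 56, 29 and 7, so it was the only transcript of the list whose interval lay below 1 in both knockouts. Ftx, E130102H24Rik, Dleu2, C430049B03Rik and H19 had 30 counts or fewer in every library. Among these transcripts D7Ertd143e and Mir17hg were those with a higher level than WT in both knockouts and intervals above 1.

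**Figure D3:**
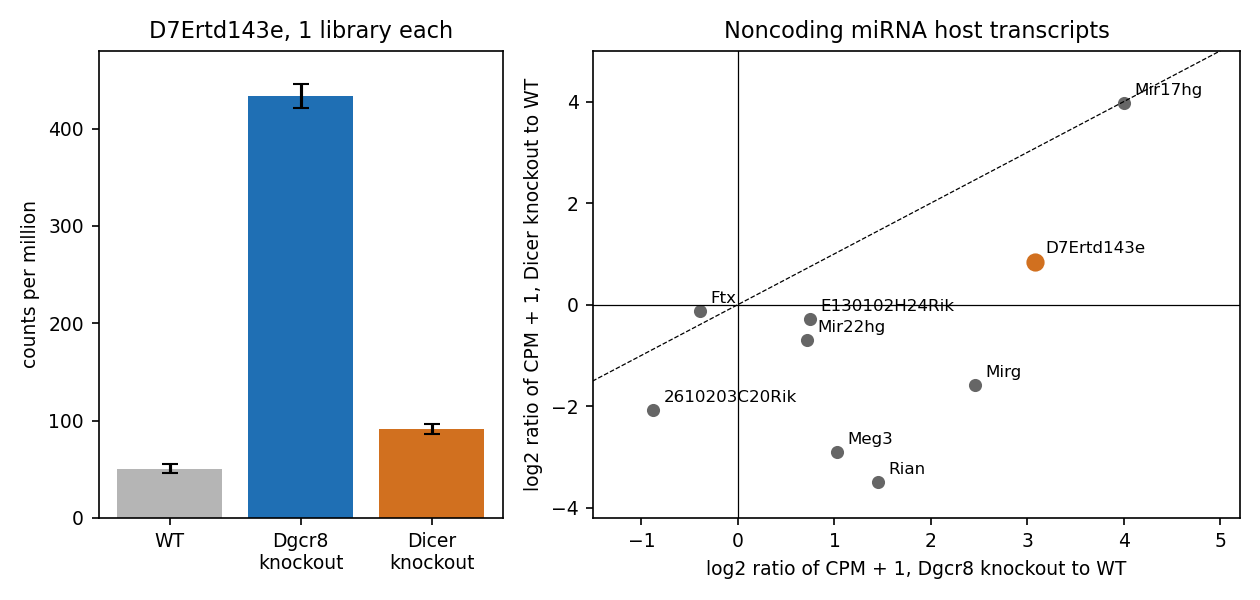
Left, the level of D7Ertd143e in CPM in each mRNA library, with bars from 0 and exact Poisson 95% intervals for counts. Right, log2 ratios of CPM + 1 to WT in the Dgcr8 and the Dicer knockout for D7Ertd143e and other noncoding hosts: D7Ertd143e has 3.08 and 0.84, Mir17hg has nearly equal ratios in both, and Mirg, Rian and Meg3 lie above 0 in the Dgcr8 and below 0 in the Dicer knockout.

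The machinery that makes and uses miRNAs was covered by a list of 18 genes, all listed. In the Dgcr8 knockout against WT 6 were higher, beside 14.3% of all genes, and 2 lower, beside 8.02%, with a median log2 ratio of 0.44 beside 0.11. In the Dicer knockout against WT 6 were higher, beside 16.0%, and 2 lower, beside 9.70%, with a median of 0.57 beside 0.10. The targeted gene was 1 of the 2 lower genes each time, and the share of lower genes was near that of all genes. Ago1, an Argonaute protein that holds the mature arm, had log2 ratios of 2.28 and 2.40. Tnrc6a, a GW182 partner of Argonaute, had 2.06 and 2.20. Lin28a, which blocks let-7 maturation, had -2.30 and -1.73, while its paralog Lin28b had 1.76 and 2.23. Drosha, the nuclease of Microprocessor, was called in neither comparison (0.30 and 0.42). Between the knockouts Dicer1 was the only gene of the list called higher in the Dgcr8 knockout and Dgcr8 the only one called lower, and both are the targeted genes.

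A list of 12 transcription factors reported at the promoter of the cluster had 2 genes higher and 2 lower than WT in each knockout. The shares of its genes called higher were near the 14.3% and 16.0% of all genes, and 8.02% and 9.70% of all genes were lower. None was called between the knockouts, where 4.15% of all genes were higher and 5.05% lower. The part of these factors in the level of the host was not tested. Klf4, a pluripotency factor, had log2 ratios to WT of -2.05 in the Dgcr8 and -2.47 in the Dicer knockout. Mycn had 1.60 and 2.17, and Myc had -1.99 in both. Tcf7l1, a Wnt pathway repressor, had 1.37 and 1.10. Pou5f1 (-0.22 and -0.43), Sox2 (0.45 and 0.48) and Nanog (0.51 and 0.04), the core factors of the stem cell network, were not called. The list medians were 0.48, 0.26 and 0.16 in the 3 comparisons, beside 0.11, 0.10 and 0.00 for all genes.

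A list of 21 NF-kappaB pathway genes was taken because the subunit Rela has been reported as a target of miRNAs of this cluster. Rela had 235 (WT), 493 (Dgcr8 knockout) and 518 (Dicer knockout) counts. Its ratio to WT was 1.87 (1.60 to 2.20) in the first and 1.78 (1.52 to 2.08) in the second, and neither reached 2-fold. Ripk1, a kinase upstream of the pathway, had log2 ratios of 2.05 and 1.88, Relb, another subunit, 1.41 and 1.70, and Nfkbia, an inhibitor that the pathway induces, 1.20 and 1.41. Of 20 genes above the floor, 3 were called higher in the Dgcr8 knockout, beside 14.3% of all genes, and none lower, beside 8.02%. Their median was 0.22 beside 0.11 for all genes. In the Dicer knockout 3 of 21 were higher, beside 16.0% of all genes, with a median of 0.20 beside 0.10. Bcl3 (-1.32) and Nfkbie (-1.17) were the 2 lower genes there, beside 9.70% of all genes. The shares called higher in both knockouts, and the share called lower in the Dicer knockout, are near those of all genes.

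The genes whose pair of log2 ratios to WT lay nearest to that of D7Ertd143e were sought over 11149 genes that reached 5 CPM in 1 library. By Euclidean distance over that pair of ratios they were Hoxa7 (0.20), Hoxa3 (0.26), Cyp2b23 (0.38), Loxl4 (0.40) and Ttll3 (0.43). Hoxa7 and Hoxa3 encode homeobox factors of the HoxA cluster. Hoxa7 had 0 (WT), 93 (Dgcr8 knockout) and 12 (Dicer knockout) counts, at least 27.7-fold and 3.23-fold higher than WT against a floor of 3 counts. Hoxa3 had 3, 132 and 19 counts and Cyp2b23 had 5, 132 and 31. Loxl4, a lysyl oxidase, had 24, 296 and 87 counts, and Ttll3 had 28, 259 and 80. All 5 had fewer counts than the host in every library. The nearness of the low genes depends on the pseudocount of 1 CPM: as plain CPM ratios of the Dgcr8 knockout to WT, Hoxa3 was at 39.3 (13.2 to 193) and Cyp2b23 at 23.6 (9.85 to 73.8), against 8.59 for the host, while Loxl4 was at 11.01 (7.26 to 17.5) and Ttll3 at 8.26 (5.58 to 12.7).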

How the data were processed

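Small RNA and stranded polyadenylated RNA libraries were made from Trizol extracts, per the labels' protocols. The authors deposited whole-number counts per mature miRNA and per RefSeq transcript. The submitters' processing notes name Bowtie and mm9, with no version or role, and the sources used here give no counter, annotation, strand use or trimming. Reads depend on ligation and PCR, which differ between sequences, so read ratios are not molar ratios. Counts from 2 to 9 were even for 62.9% of miRNAs and for 69.6% to 74.8% of genes, so the intervals may be too narrow. Depth was 2594949 miRNA reads and 9931625 (WT), 11123498 (Dgcr8 knockout) and 12309100 (Dicer knockout) mRNA counts, and empty cells were read as 0.

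Shares have exact Clopper-Pearson intervals and ratios exact conditional binomial ones (scipy 1.17.1, Python 3.11.15). Folding used ViennaRNA 2.7.2, and TMM factors edgeR 4.0.16 in R 4.3.3, whose count test needs replicates. Sequences are from RefSeq tables of GRCm38.p6; 546 miRNAs matched by name, 9 by synonym and 152 did not. The ratio and interval code was tested on simulated data. Members and lists were chosen with earlier results of these data known. Named genes are the members, their opposite arms and seed sharers, the host, its neighbours and nearest patterns, the targeted genes, noncoding hosts and up to 4 members of each list by size of ratio; others of the lists, such as Rela, Pou5f1, Sox2, Nanog, Drosha and Nfkbie, were added after their values were seen.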

Additional observations from a re-analysis of the deposited data

Results flagged for a closer look

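Beside D7Ertd143e, which was above WT in both knockouts, 3 noncoding hosts of the imprinted Dlk1-Dio3 region moved in opposite directions in the knockouts. On log2(CPM + 1) against WT, Mirg was at 2.46 (Dgcr8 knockout) and -1.59 (Dicer knockout), Rian at 1.45 and -3.50, and Meg3 at 1.03 and -2.91. Opposite directions were not particular to that region: Mir22hg, the host of miR-22, was at 0.72 and -0.71, below 2-fold in both. Each value compares 1 library with the same WT library, and the difference was not tested. The second value of Mirg rests on a count of 0 and depends on the pseudocount.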

How the results depend on the processing

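No alternative reversed the direction of a host ratio. With median-ratio size factors the host ratio of the Dgcr8 knockout to WT was 7.80. By construction, counts of genes called followed the size rule, pseudocount and floor. In the Dgcr8 knockout against WT, 3581 genes were higher and 2345 lower at 1.5-fold, 342 and 159 at 4-fold, and 1087 and 411 with a pseudocount of 5; a floor of 5 CPM left 696 lower. In the Dicer knockout against WT these were 3759 and 2642, 539 and 233, and 1232 and 591. Between the knockouts, 1642 genes were higher in the Dgcr8 knockout and 1618 lower at 1.5-fold, 63 and 114 at 4-fold, 182 and 222 with a pseudocount of 5, and 849 and 1004 with a pseudocount of 0.1; a floor of 5 CPM left 415 lower. Entering hairpins with 1 listed arm gave 119 of 285 with a higher 3p arm. The 5p share of the cluster was 5.95% without miR-293 and 9.36% as a median over hairpins, since hairpins differ in weight. Per 100 reads outside the cluster, miR-293-3p had 175.6. Of 96 counts of the gene lists, 3 changed, each by 1 gene with size factors: 1 promoter regulator was higher in the Dicer knockout, and in the Dgcr8 knockout 5 hosts were higher and 1 trophectoderm marker lower. The 96 include counts made without the floor of 1 CPM, which could not change. On log2(CPM + 1) a gene below 1 CPM in both libraries cannot reach 2-fold. With 1 library a group, no replicate could be left out, so the spread between cultures is unknown. The arms with the fewest reads, miR-294-5p and miR-295-5p, have the widest intervals.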
